A study of Mus musculus with 8 samples.

Results

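The cells labelled erythrocytes were the 115 cells that the depositors' cell table names Erythrocyte, of 41,106 cells in all. They came from a single cluster of mouse lung cells, sorted on CD45 and recombined so that CD45-negative cells were enriched, and no cell of that cluster carried another label. The mice were C57BL/6 animals with an Sftpc-CreERT2 allele and the Rosa26 mTmG reporter, in which tamoxifen marks alveolar type 2 cells. All 8 mice carried the reporter and were given tamoxifen at 8 to 10 weeks of age. Afterwards 4 mice breathed cigarette smoke (CS) for 10 months and 4 breathed room air (RA). The 115 cells came from every mouse: 20 from C2, 10 from C5, 22 from D2 and 21 from D5 among the CS mice, and 16 from F1, 8 from F3, 12 from M1 and 6 from M3 among the RA mice. The exposures are pooled below except where they are compared. The markers Hba-a1, Hbb-bs and Alas2 were found in 113, 115 and 92 of the cells, at levels above those of every other label. Apart from globin, however, the profile of 64 cells was nearest to general capillary endothelial cells and that of 20 to B cells, so the text speaks of labelled cells.

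Red cells carry oxygen on haemoglobin, a protein of alpha and beta globin chains that each hold haem. Their precursors in the marrow switch on the globin genes, the enzymes of haem synthesis and a set of membrane proteins, then expel the nucleus, and the young red cell that enters the blood, the reticulocyte, keeps only a dwindling stock of RNA. Lung tissue holds red cells in its vessels. In this study the vessels were flushed and a red cell lysis buffer was used before the cells were sequenced.

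Libraries held 2553 to 6371 cells each after cells labelled as multiplets or cell cycle were left out, and 31,882,952 to 55,485,617 corrected transcripts in all. Of the 115 labelled cells, 1 shared its barcode with a cell of another library, beside 394 of 41,106 cells over the series. Xist and Ddx3y went against the labelled sex in all 4 CS libraries, and sex was not used. Mouse M1 stood apart from the other 7 in the red cell, endothelial, MHC class II and B cell lists, and values without it are given beside many of those it moves. Doublets were not called here beyond the depositors' own multiplet label.

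A labelled cell held a median of 3957 transcripts (1018 to 15,813) from a median of 1844 genes. General capillary cells, the most similar label described below, held a median of 3833 transcripts from 2077 genes.

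Every labelled cell held transcripts of the adult globin genes, but in very unequal amounts. Hba-a1, Hba-a2, Hbb-bs and Hbb-bt together made up between 0.354% and 84.3% of a cell's transcripts, with a median of 14.99%. The middle of the range was wide as well, with a lower quartile of 5.39% and an upper quartile of 39.0%. Cells with more than 50% globin were 17 of 115, or 14.8% (exact 95% binomial interval 8.85% to 22.6%, which pools the mice and covers counting error only), with 0% to 41.7% by mouse, and cells with under 1% were 4.

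Averaged over the cells of a mouse, globin amounted to 1003 transcripts per 10,000 in C2, 1851 in C5, 3155 in D2 and 1951 in D5. In the room air mice it was 2337 in F1, 1221 in F3, 4631 in M1 and 3915 in M3. The mean was 2508 ± 1287 (SD, n = 8 mice), and it was 2205 ± 1037 without M1. The lowest labelled cell of M1 held 19.9% globin, whereas the lowest cell of each other mouse lay between 0.354% and 2.66%.

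**Figure D1:**
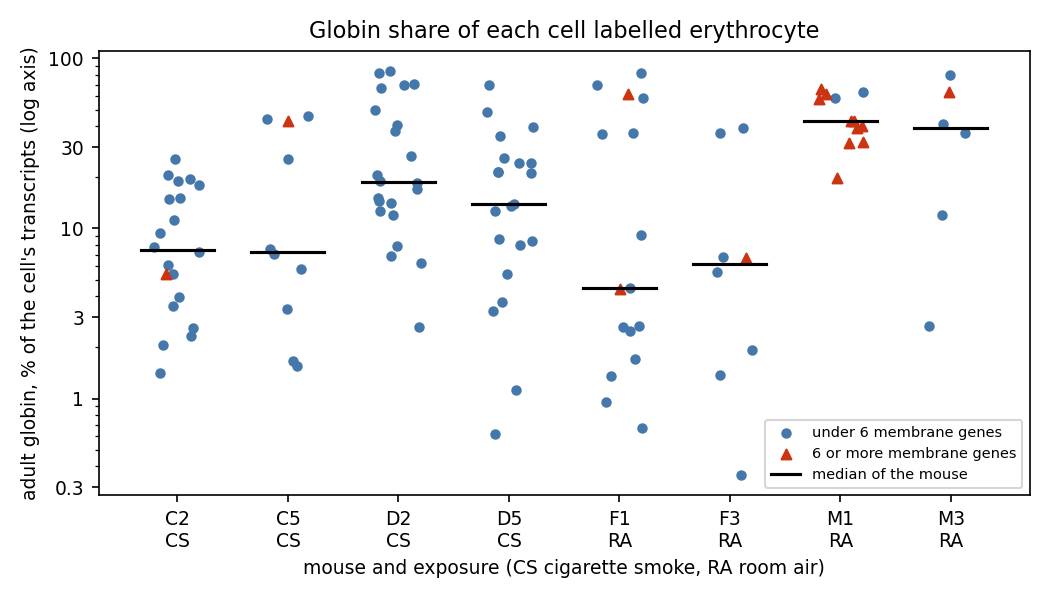
Share of adult globin among the transcripts of each of the 115 labelled cells (log axis, percent), by mouse. Bars mark the median of each mouse, from 4.45% in F1 to 43.0% in M1, and triangles mark the 16 cells with 6 or more red cell membrane genes, of which 10 came from M1.

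In the plot of globin by mouse, the cells of the other 7 mice spread from a few percent or less to 25.5% or more, and M1 shows the narrowest spread on the log axis. Globin was higher in the labelled cells than in most other cells of the lung, but the ranges overlapped. In the 39,959 cells with other labels the median was 0%, and 230 of them reached the lowest labelled value, while 30 reached the labelled median. General capillary cells stayed at or under 1.48%. The labels name clusters drawn from expression. Differences in red cell genes between labels, here and below, therefore follow in part from how the cells were grouped.

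Beta globin transcripts, as counted, exceeded those of alpha globin. Hbb-bs supplied 61.1% ± 2.35 of the adult globin transcripts (SD, n = 8 mice), Hba-a1 14.4% ± 1.44, Hbb-bt 13.3% ± 1.03 and Hba-a2 11.3% ± 1.58, so the mix of chains varied far less between mice than the amount. The ratio of beta to alpha was 2.94 ± 0.391 in the labelled cells and 2.59 ± 0.403 in the globin of all other labels. Across the 115 cells, which come from 8 libraries and differ in depth, alpha and beta transcripts ranked the cells alike, with a Spearman rho of 0.970. The embryonic genes Hba-x and Hbb-y were at 0 in all 115 cells, which allows a share of up to 2.61% of cells with a transcript found at this depth. Such limits, here and below, cover counting error only and say nothing of cells that express a gene.

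The split within the alpha pair is uncertain, because its genes are near copies. Hba-a1 (chromosome 11, 32283511 to 32284465, plus strand, GRCm38) and Hba-a2 (chromosome 11, 32296489 to 32297298) differ at 1 of 429 coding bases. Hbb-bs and Hbb-bt on chromosome 7 differ at 1 of 444. After the coding sequence, where 3′ libraries are read, the 74 annotated bases of Hba-a1 are identical to those of Hba-a2, which runs on for 16 more, while Hbb-bs and Hbb-bt differ at 40 of 134 aligned positions. Sums over the alpha pair do not depend on that split. They do depend on how reads that fit both alpha genes were counted, and so does the ratio of beta to alpha. That was not tested.

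The enzymes of haem synthesis were present at much lower levels. Alas2, which makes the first committed intermediate in red cells, was found in 92 of 115 cells (80%) at 14.6 ± 7.56 per 10,000, and at 12.4 ± 4.46 without M1. Its highest level in any other label was 0.201. Fech, which inserts the iron, was found in 56 cells at 5.12 ± 4.70. All 8 listed enzymes had more than 2 times the mean level of the other labels, and 7 of 8 exceeded every other label. The exception was Alad, at 0.673 beside 2.64 in mesothelial cells. Without M1 it was 6 of 8 on both counts, since Alad fell to 0.317 ± 0.353 and Uros from 0.385 to 0.104 ± 0.166. The share of all genes that passes these cuts was not counted. Counts of this kind, here and below, describe the listed genes only and do not show that the lists are unusual.

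Summed over the 8 enzymes, haem synthesis came to 12.9 per 10,000 in C2, 17.2 in C5, 18.0 in D2, 16.5 in D5, 28.2 in F1, 19.6 in F3, 100.3 in M1 and 35.5 in M3. M1 lay far above the others, and the mean of 31.0 ± 28.9 was 21.1 ± 7.90 without it. Globin and haem synthesis transcripts ranked the 115 cells similarly, with a Spearman rho of 0.776. Of the iron supply genes, the mitochondrial importer Slc25a37 was found in 46 cells at 4.42 ± 7.54, and at 1.76 ± 0.809 without M1. Tfrc, the transferrin receptor, was found in 24 cells at 1.57 ± 3.10, and at 0.481 ± 0.443 without M1. Of the 5 listed iron supply genes 2 exceeded every other label, and Steap3, at 0.0593 in 2 cells, and Slc11a2, at 0.181 in 9, were below the mean of the other labels, 0.101 and 0.225, and at 0.0225 and 0.114 without M1.

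Genes of the red cell cytosol and of late maturation were also present. Bpgm, which makes the 2,3-bisphosphoglycerate that lowers the oxygen affinity of haemoglobin, was found in 70 cells at 12.1 ± 8.53. Car2, a carbonic anhydrase, was found in 41 cells at 12.96 ± 22.4, of which 5.19 ± 4.91 remained without M1. Of the 7 cytosol genes analysed, 5 exceeded every other label, while catalase (Cat), at 1.33, was lower than in alveolar type 2 cells, at 4.55, and Gpx1, at 19.2, lower than in the label ncMono, at 21.8. Without M1 these levels were 0.861 ± 0.463 for Cat and 12.4 ± 10.2 for Gpx1. All 8 maturation genes exceeded every other label, and 7 of 8 did so without M1, Fam210b being the exception. Among them were the ubiquitin-conjugating enzyme gene Ube2l6 in 74 cells at 5.51 ± 3.34, and Bnip3l, needed to clear mitochondria, in 57 cells at 2.93 ± 2.24. Their sum was 37.8 ± 36.5, and 25.5 ± 12.0 without M1.

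**Figure D2:**
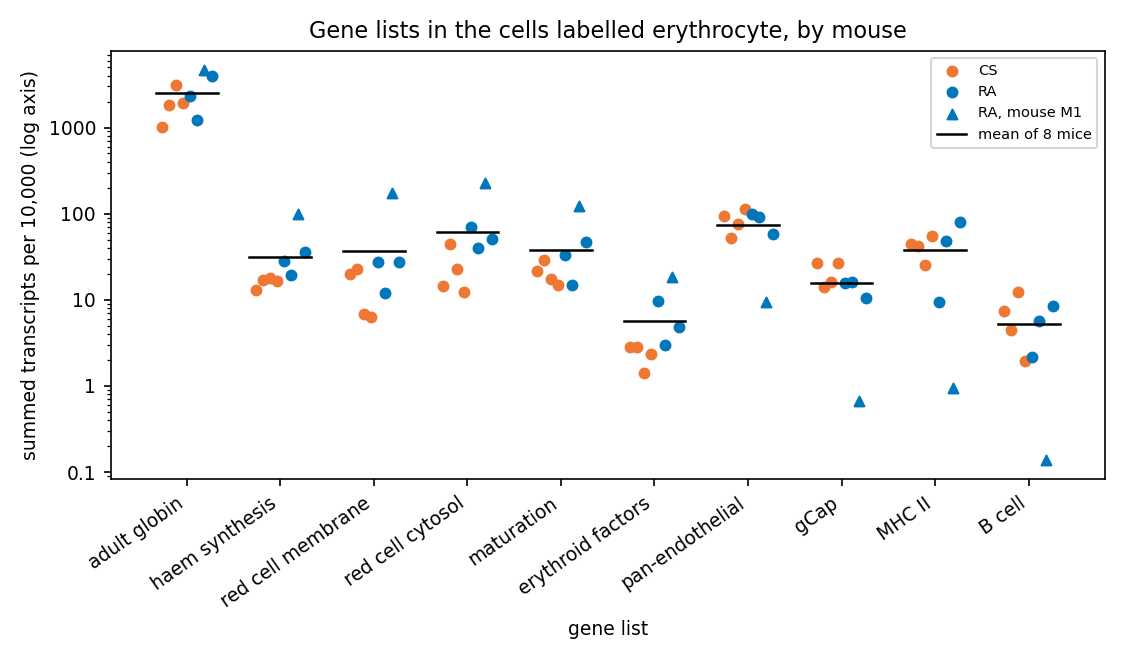
Summed level of each gene list in the labelled cells of each mouse, in transcripts per 10,000 (log axis), with the mean of the 8 mice as a bar and M1 as a triangle. M1 was highest for globin and for the 5 other red cell lists, and lowest for the pan-endothelial, gCap, MHC class II and B cell lists.

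The plot of gene lists by mouse shows red cell and other lists side by side. In 7 mice the pan-endothelial sum, from 52.9 to 113 per 10,000, exceeded the sum of the 14 red cell membrane genes, from 6.28 to 27.7. Without Epb41, which other labels also hold, the membrane sum was 0.707 to 18.6 in those mice. In M1 the order was the opposite, with 173 for the membrane genes (142 without Epb41) and 9.51 for the endothelial ones.

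The membrane genes were counted in each cell. They encode the anion exchanger band 3 (Slc4a1), the Rh proteins (Rhag, Rhd), the Kell antigen (Kel), and parts of the skeleton beneath the membrane, among them beta spectrin (Sptb), ankyrin (Ank1) and Epb42. Of 13 such genes counted per cell, 76 cells held none, 14 held 1, 4 held 2 and 5 held 3. No cell held 4 or 5, and 16 cells held 6 to 13. Epb41 was left out of this count after its values were seen, because other labels hold it at up to 8.45 per 10,000, and the division at 6 genes was likewise set after the counts were seen. Among 39,959 cells of other labels, 5 held 4 or more of the 13 genes and none held 6 or more.

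**Figure D3:**
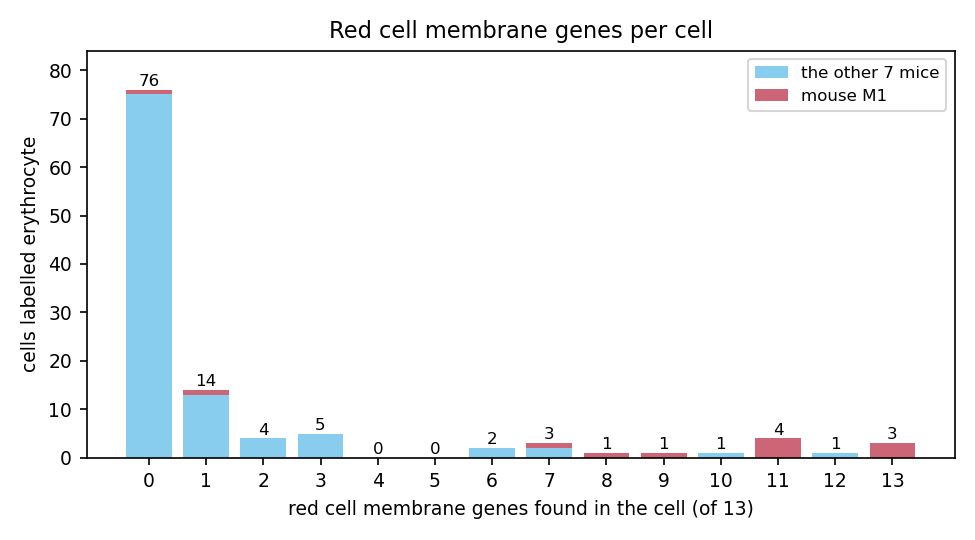
Number of red cell membrane genes (of 13) found in each of the 115 labelled cells, with M1 in a separate colour. The counts leave a gap at 4 and 5 genes, with 99 cells below it and 16 above it, and 10 of those 16 came from M1.

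The 16 cells above the gap came from 6 mice: 10 from M1, 2 from F1 and 1 each from C2, C5, F3 and M3. D2 and D5, with 43 labelled cells between them, had none. Slc4a1 was found in 16 of 16, at 30.6 per 10,000, against 9 of the other 99 cells, at 0.587. Rhd was found in 15 of 16 and Ank1 in 12 of 16, and neither was found in any of the 99, which allows a share of up to 3.03% of cells with a transcript found. These values are part of what divided the cells, and the rest of their transcripts were not used for that.

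Several other red cell genes followed the same division. Fech was found in 16 of the 16 cells and 40 of the 99, at 20.4 and 1.99 per 10,000. The antioxidant genes Prdx2 and Gpx1 were found in all 16, at 44.9 and 78.4, and stood at 2.03 and 7.17 in the 99. Alas2 differed less, being found in 15 of 16 and 77 of 99 cells, at 30.2 and 11.4. So did globin itself, with a median share of 41.4% (4.43% to 65.7%) in the 16 cells and 13.5% (0.354% to 84.3%) in the 99. In the 6 of the 16 cells outside M1 the median share was 24.7%. The 99 cells thus held globin and Alas2 with few membrane transcripts found, and the highest globin shares were among them. They were not alike: 9 of them held 2 or 3 membrane genes, with a median globin share of 67.1% and a median of 1659 non-globin transcripts. The 76 with none had medians of 9.03% and 3346, and the 16 cells a median of 1842 non-globin transcripts. Counts of membrane genes were not adjusted for this depth.

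The nuclear genes of red cell precursors differed in how they fell between these cells. Of the 6 listed transcription factors, Gata1 and Klf1 were each found in 6 of 16 and in 0 of 99, Nfe2 in 7 of 16 and 3 of 99, and Gfi1b in 1 of 16 and 1 of 99. Mki67, which marks dividing cells, was found in 7 of 16 at 9.17 per 10,000 (5.19 in the 6 of these cells outside M1) and in 0 of 99, and Cdk1 in 4 of 16 and 0 of 99. Top2a and Birc5, found in 4 of the 16 cells each, were also found in 2 of the 99 each. Of the 7 cells of the 16 with a proliferation gene, 3 came from M1 and 4 from other mice. Tal1 and Lmo2 did not divide the cells in this way, since they were found in 35 and 38 of the 99 cells. Both are also held by endothelial cells, at up to 2.26 and 2.31 in the lymphatic endothelial label.

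The 16 cells held next to nothing of other lung cells. Gpihbp1 and Cd74 were found in 0 of 16, which allows a share of up to 18.8% of cells with a transcript found. The 9 pan-endothelial genes summed to 0.718 per 10,000 in the 16 cells and 93.2 in the 99, and the 5 MHC class II genes to 0.339 and 40.8. The 16 cells held fewer genes, with a median of 611 against 1905, at medians of 3674 and 4486 transcripts. Outside M1 the 6 cells had medians of 521 genes and 2279 transcripts, so they were also shallower than the 99. These 6 cells summed to 0.856 for the endothelial list. Their sum of 104 for the 13 membrane genes follows from how they were chosen.

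Promoters are shown for genes of each of the 3 roles that appeared together in the 16 cells: an alpha globin, the first haem enzyme and a pair of membrane genes. Each is RefSeq sequence of GRCm38.p6, 5′ to 3′ on the gene's strand, from 250 bases before the RefSeq start to the last base before the outermost start annotated by GENCODE. Capitals mark AGATAA, the core bound by GATA factors, CCACCC, the core of the boxes bound by Klf1, and CCAAT, each on either strand.
Hba-a2 promoter, chr11:32296242-32296488, plus strand: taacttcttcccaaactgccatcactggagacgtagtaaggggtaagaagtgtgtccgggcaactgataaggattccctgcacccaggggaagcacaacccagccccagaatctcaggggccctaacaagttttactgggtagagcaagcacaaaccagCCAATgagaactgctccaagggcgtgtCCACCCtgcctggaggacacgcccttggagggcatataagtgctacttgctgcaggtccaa
Alas2 promoter, chrX:150547167-150547374, plus strand: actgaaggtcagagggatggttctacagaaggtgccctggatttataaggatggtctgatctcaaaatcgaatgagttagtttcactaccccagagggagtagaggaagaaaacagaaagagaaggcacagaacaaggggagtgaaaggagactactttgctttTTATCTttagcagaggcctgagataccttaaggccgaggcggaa
Rhag promoter, chr17:40810899-40811125, plus strand: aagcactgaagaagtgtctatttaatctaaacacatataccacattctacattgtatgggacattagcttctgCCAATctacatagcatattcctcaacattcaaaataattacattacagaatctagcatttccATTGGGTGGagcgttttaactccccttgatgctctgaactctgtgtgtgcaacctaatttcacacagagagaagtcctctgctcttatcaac
Kel promoter, chr6:41704340-41704575, minus strand: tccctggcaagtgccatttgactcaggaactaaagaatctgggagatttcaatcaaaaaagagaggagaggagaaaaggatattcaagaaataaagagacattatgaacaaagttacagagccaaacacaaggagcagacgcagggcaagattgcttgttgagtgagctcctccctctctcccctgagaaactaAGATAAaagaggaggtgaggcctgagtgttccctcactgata

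In Rhag the CCACCC and CCAAT matches on the opposite strand overlap each other. Of the 26 globin, haem synthesis and membrane genes, 20 had an entry in the promoter table. Over the 250 bases before the start, AGATAA stood in 6 of the 20 (30%) and in 10.3% of all 27,025 promoters, CCACCC in 9 (45.0%) and in 27.7%, and CCAAT in 11 (55.0%) and in 34.5%. All 4 adult globin promoters held CCAAT. These are matches of letters only.

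Most of the other 99 cells held transcripts of other lung cells beside globin, and 89 of them held at least 1 pan-endothelial gene, a measure that B and T cells also often meet, as given below. Gpihbp1, which carries lipoprotein lipase to the capillary lumen and marks general capillary cells, was found in 62 of the 115 cells (53.9%, exact interval 44.4% to 63.2%), with 8.33% to 76.2% by mouse. Cd74, the invariant chain of MHC class II molecules, was found in 59 (51.3%, 41.8% to 60.7%), with 8.33% to 75% by mouse. Both were found in 40 cells, Gpihbp1 alone in 22, Cd74 alone in 19 and neither in 34, a number that includes all 16 cells above the gap.

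Gpihbp1 shares were 91.8% in general capillary cells, 3.56% in B cells and 3.22% in T cells, at medians of 3833, 4055 and 4755 transcripts per cell. After thinning every cell to 1000 transcripts they were 32.2% in the labelled cells, 64.5% in general capillary cells, 0.985% in B cells and 1.13% in T cells. The share in the labelled cells therefore lay between those of the capillary cells and of the labels that should lack the gene. It mixes sets of cells: the gene was found in 90.6% of the 64 nearest to general capillary cells, but in 0 of the 16 above the gap. Here and below, thinning counted globin transcripts, so the thinned shares are not matched for non-globin depth. Cd74 shares were 51.3% in the labelled cells, 74.99% in general capillary cells, 97.9% in B cells and 16.5% in T cells, and 39.1%, 56.1%, 95.03% and 4.01% after thinning.

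By mouse, Gpihbp1 stood at 6.88 per 10,000 in C2, 3.34 in C5, 4.17 in D2, 7.28 in D5, 8.22 in F1, 2.90 in F3, 0.228 in M1 and 4.65 in M3. The mean was 4.71 ± 2.65 (SD, n = 8), against 12.7 in general capillary cells. Cd74 stood at 22.4 in C2, 21.7 in C5, 13.3 in D2, 31.3 in D5, 4.59 in F1, 28.7 in F3, 0.118 in M1 and 49.8 in M3, with a mean of 21.5 ± 15.9. Its level was 16.9 in general capillary cells and 126 in B cells, and the mean of the other labels was 44.4. M1 was lowest for both genes, and F1 was high for Gpihbp1 and low for Cd74. All 5 MHC class II genes, Cd74 among them, lay below the mean of the other labels.

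Endothelial genes were found as a group. All 9 pan-endothelial genes were found, each at more than 2 times the mean of the other labels, and 94 of 115 cells (81.7%) held at least 1. That share was 99.96% in general capillary cells, 68.8% in B cells and 71.2% in T cells, and after thinning to 1000 transcripts 70.4% in the labelled cells, 99.9%, 34.2% and 32.8%. The median number of these genes in a cell was 6 in the labelled cells, 8 in general capillary cells and 1 in B and in T cells. Pecam1, an adhesion molecule of endothelial junctions, was found in 82 cells (71.3%, beside 55.5% of B cells and 52.1% of T cells, and 49.6%, 24.4% and 21.2% after thinning) at 8.37 ± 4.79 per 10,000. Calcrl, the receptor for adrenomedullin, was found in 73 at 15.1 ± 8.13, and Epas1, a hypoxia-inducible factor, in 73 at 15.5 ± 6.85. The list summed to 74.3 ± 33.3, or 41.4% of its level in the label EC_capillary_A, where it was highest.

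Of the capillary genes, those of general capillary cells were more abundant than those of aerocytes, the larger cells of the gas-exchange surface. The 4 general capillary genes summed to 15.7 ± 8.33, or 39.8% of their level in the label EC_capillary_B. The 4 aerocyte genes summed to 1.72 ± 1.38, or 3.01% of their level in EC_capillary_A, and Apln was at 0 in all cells. The 3 cells nearest to aerocytes, described below, all held aerocyte genes, at 24.2, and none of the general capillary genes.

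B cell genes were found in fewer cells and T cell genes in none. The 5 B cell genes were found in 22 of 115 cells (19.1%) and summed to 5.30 ± 3.99 per 10,000, or 9.28% of their level in B cells. Cd79a, part of the B cell receptor, was found in 18 cells. The T cell genes Cd3e, Cd3d, Cd3g and Trbc2 were at 0 in all 115 cells.

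Other lung cells contributed little. The NK, macrophage, neutrophil, mast cell and platelet lists each summed to under 0.2 per 10,000, with 3 of the 5 platelet genes at 0, and the fibroblast and mural lists to 0.517 and 0.371. Of the monocyte list only Ace was common, in 65 cells, and it is also an endothelial gene, at 12.7 in the arterial label. The alveolar type 2 list summed to 6.10 ± 15.3 and the airway list to 10.0 ± 23.5, and 1 mouse made most of each sum, F3 with 44.0 and M1 with 67.5. Genes that respond to tissue dissociation, such as Jun and Fos, summed to 32.2 ± 22.7.

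To see which label each cell resembled apart from globin, each profile was scaled to its non-globin transcripts and correlated with the mean profile of the 31 other labels over 2000 genes. General capillary cells were nearest for 64 cells (55.7%, exact interval 46.1% to 64.9%, with 8.33% to 85.7% by mouse) and B cells for 20 (17.4%). T cells were nearest for 9, venous endothelial cells for 6, mast cells for 5, aerocytes (the label EC_capillary_A) for 3 and club cells for 2, and 6 labels were nearest for 1 cell each. Among cells of the other labels, 94.8% were nearest to their own label. Those cells also make up the profiles, and none of the 31 labels is a red cell label, so that share does not cover red cells.

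The median best correlation was 0.730 (0.348 to 0.851) for the 64 cells and 0.762 (0.221 to 0.853) for the 20. It was 0.705 for the cells nearest to venous endothelial cells and 0.621 for those nearest to aerocytes, 0.403 for those nearest to T cells and 0.190 for those nearest to mast cells. None of the 16 cells above the gap was nearest to an endothelial label, and their median best correlation was 0.290. Cells nearest to general capillary cells came from all 8 mice, as 13 of 20 cells in C2, 4 of 10 in C5, 11 of 22 in D2, 18 of 21 in D5, 10 of 16 in F1, 5 of 8 in F3, 1 of 12 in M1 and 2 of 6 in M3.

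On the non-globin scale the 64 cells lay near general capillary cells for most of their markers. Over the 13 pan-endothelial and general capillary genes the ratio of the 64 cells to capillary cells ranged from 0.688 for Tie1 to 1.31 for Aplnr. Gpihbp1 stood at 11.2 ± 5.49 in the 64 cells and 12.3 ± 1.84 in the capillary cells (SD, n = 8 mice each), and Kit at 5.09 ± 1.66 and 5.02 ± 1.40. Pecam1 stood at 16.4 ± 5.09 and 15.2 ± 0.825, and Epas1 at 37.6 ± 9.88 and 36.2 ± 4.13. The genes of the red cell were what differed: Alas2 stood at 24.7 ± 17.1 and 0.00908, and Bpgm at 18.1 ± 16.8 and 0.155. The 64 cells held a median of 3776 non-globin transcripts, and capillary cells 3833.

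The 20 cells nearest to B cells came from 7 mice. On the non-globin scale Cd79a stood at 22.2 ± 12.8 in them and 23.8 ± 4.42 in B cells, Cd74 at 113 ± 46.9 and 132 ± 30.7, and H2-Aa at 34.98 ± 19.2 and 32.7 ± 6.96. The other 4 B cell genes stood at 0.448 to 0.793 times their level in B cells, Cd79b lowest at 5.29 ± 4.61 and 11.8 ± 2.04. Alas2 was found in 15 of the 20 and stood at 25.1 ± 33.5 and 0.00732. Gpihbp1 was found in 0 of the 20, which allows a share of up to 15% of cells with a transcript found, and they held a median of 3052 non-globin transcripts beside 4054 in B cells. Both comparisons are descriptions, since these genes helped to assign the cells.

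**Figure D4:**
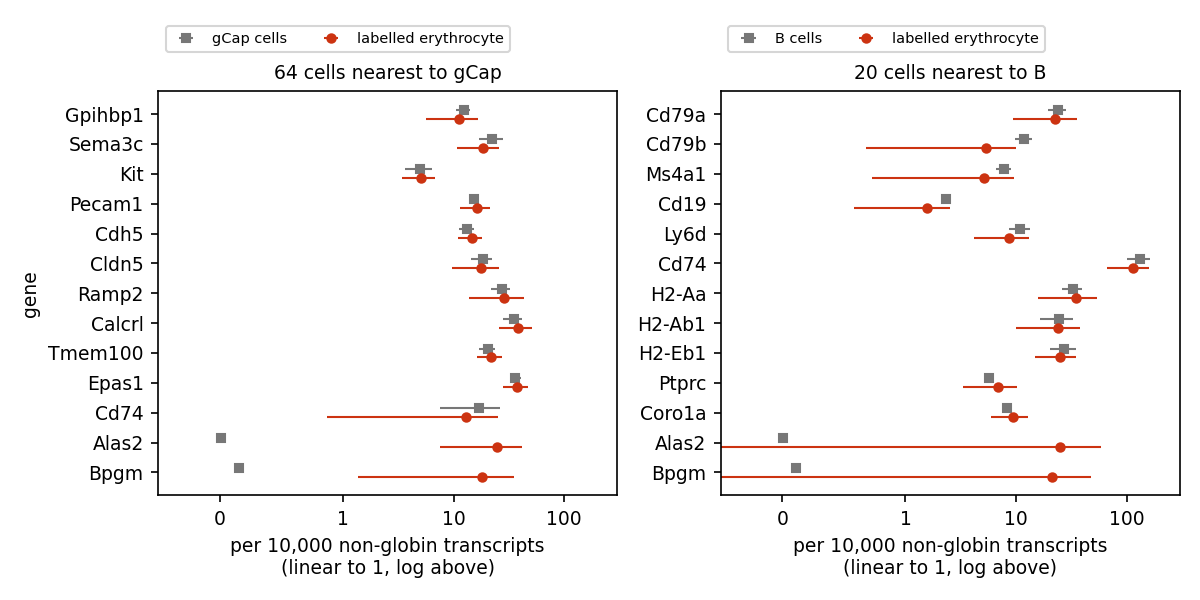
Mean level of named genes per 10,000 non-globin transcripts (linear to 1, log above), with the SD over mice as bars, which are cut at the panel edge where they pass below it. On the left are the 64 labelled cells nearest to general capillary cells (gCap) beside gCap cells, on the right the 20 nearest to B cells beside B cells, and in each the markers overlap while the means of Alas2 and Bpgm are set apart.

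The numbers of globin and endothelial transcripts per cell had a Spearman rho of 0.034 over the 115 cells and 0.341 over the 64 nearest to general capillary cells. For globin and all non-globin transcripts it was 0.060 and 0.225. Both sets pool cells of 8 libraries that differ in depth. In cells with under 1% globin, 4 of 4 were nearest to an endothelial label, in those with 1% to 10% it was 30 of 43, in those with 10% to 50% it was 34 of 51, and in those above 50% it was 6 of 17. Cells close to these limits were 7 within 0.5 points of 1%, among them 3 of the 4 below it, 7 within 2 points of 10% and 3 within 5 points of 50%. Cells above 50% held a median of 1029 non-globin transcripts, and those with 10% to 50% held 3230. Their median best correlations were 0.348 and 0.696. The shares nearest to an endothelial label were not adjusted for this depth. Whether barcodes that hold more than a single cell, or free RNA left after the depositors' correction, bear on the labelled cells was not tested.

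In the plot of globin against endothelial genes the 3 kinds of cell overlap in globin. On the other axis the medians were 129.6 for the cells nearest to gCap, 1.85 for those nearest to B and 0 for the 16 cells above the gap, and the first and second of these sets overlap between 15.9 and 26.1. The cells nearest to gCap spanned 0.354% to 81.6% globin, those nearest to B 1.37% to 84.3% and the 16 cells above the gap 4.43% to 65.7%, with 1 cell belonging to both of the last sets.

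Outside the lists, the genes with the largest ratio to other labels were Hba-ps4, Rsad2, Tmcc2 and Tent5c. Hba-ps4 is an alpha globin pseudogene, found in 31 cells, and reads of it and of the alpha genes may not be told apart. Rsad2, an interferon-induced gene, was found in 32 cells at 3.51 ± 4.83 per 10,000, and at 1.86 ± 1.27 without M1. Tmcc2 was found in 67 at 15.2 ± 14.5, beside 7.38 in aerocytes. Others among the 20 leading genes were Eif2ak1, the haem-regulated kinase that holds back globin translation when haem is short, at 2.17 ± 2.22, and Ube2o, a ubiquitin ligase of reticulocytes, at 3.47 ± 2.52. Glp1r, at 2.35 ± 1.96, also led the list, but general capillary cells held it at 5.02. Among all genes other than globin, Malat1 was the most abundant, at 206 ± 50.3, beside 242 in general capillary cells.

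Smoke and room air were compared over mice for 7 values, and no difference passed the test. The labelled cells made up 0.603% of a mouse's cells in C2, 0.192% in C5, 0.358% in D2 and 0.371% in D5, and 0.251% in F1, 0.130% in F3, 0.257% in M1 and 0.235% in M3. The groups overlapped, with means of 0.381% ± 0.169 in CS and 0.218% ± 0.0594 in RA (exact two-sided permutation p = 0.114, and 0.80 with Benjamini-Hochberg adjustment over the 7 values). Each sequencing lane held 1 mouse of each group, and the share was higher in CS in 3 of 4 lanes. The difference of 0.163 points was 0.0888 without C2 and 0.226 without C5, the CS mouse whose share lay within the RA range. Without C5 the exact permutation p was 0.0571, the smallest that 4 against 3 mice allow.

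Globin was lower in CS, at 1990 ± 885 per 10,000, than in RA, at 3026 ± 1538, but the values overlapped (exact permutation p = 0.257, adjusted 0.867), and the difference of −1036 was −501 without M1. For Gpihbp1 the means were 5.42 ± 1.96 in CS and 4.00 ± 3.35 in RA (exact permutation p = 0.571), and for Cd74 they were 22.2 ± 7.35 and 20.8 ± 23.0 (exact permutation p = 0.914). The pan-endothelial sum was 83.9 ± 25.8 and 64.6 ± 41.0 (exact permutation p = 0.514), the MHC class II sum 41.7 ± 11.9 and 34.4 ± 36.1 (exact permutation p = 0.743), and the median transcripts per cell 4312 ± 883 and 4741 ± 2017 (exact permutation p = 0.714). Without M1 the difference between CS and RA was 0.157 for Gpihbp1, 0.972 for the pan-endothelial sum, −5.54 for Cd74 and −3.87 for the MHC class II sum, so the last 2 changed sign. The difference in median transcripts was −430, and 385 without M3. With 4 mice a group the smallest p this test can give is 0.0286, and 6 to 22 cells a mouse limit the precision of each value.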

How the data were processed

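Right lungs of 8 mice were dissociated, sorted on CD45 and recombined so that CD45-negative cells were enriched, and sequenced as 10x 3′ v3 libraries. Per the submitters' processing notes, reads were aligned with STAR 2.7.3a and STARsolo to GRCm38.p6. The authors kept spliced and unspliced transcripts, dropped barcodes with under 1000 transcripts, a high mitochondrial share or too few unspliced transcripts, corrected for free RNA with SoupX, clustered the cells and labelled the clusters. The filter on unspliced transcripts can remove cells without a nucleus. The deposited matrix holds estimated counts, of which 1.28% are whole within 1e-06, and it is not scaled. The deposited cell table gives a mitochondrial percent, total, mouse and label for each cell.

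Each cell was scaled to 10,000 transcripts. Levels were averaged over the labelled cells of a mouse, then over mice (mean ± SD). A gene was found in a cell where its value was above 0. Ratios to other labels used an addition of 0.01 to both levels. Nearest labels used Pearson correlation of log values, without 7 globin genes and pseudogenes, over the 2000 genes most variable among labels. No gene of a cluster was tested against other cells. The 8 mice were compared by an exact two-sided permutation test. Named genes were those of the red cell lists, Gpihbp1 and Cd74, leading members of the other lists, and the 20 genes outside the lists with the largest ratio among those found in at least 20% of cells. Cells and lists were chosen with earlier results of these data known. Hbb-bh1, Hbb-bh2, Ahsp and Zfpm1 were not analysed here. Some members of the red cell lists are counted in the sums but not reported here by name. Nothing in the labels ties replicate numbers across groups. Python 3.11.15, numpy 2.4.6, scipy 1.17.1 and pandas 2.3.3 were used, and the scripts were tested on simulated data. Sequences are from RefSeq and gene positions from GENCODE M21.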

Additional observations from a re-analysis of the deposited data

How the results depend on the processing

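All 60 alternatives listed with the analysis kept the direction and the side of the threshold of the value they repeat, or moved it by less than 1 SD. The globin level ranged from 2205 to 2723 per 10,000, the Gpihbp1 level from 4.21 to 5.68 and the Cd74 level from 17.4 to 24.8. The difference in the cell share between CS and RA ranged from 0.0888 points without C2 to 0.236 with leukocytes left out of the denominator, and that in globin from −1638 without F3 to −501 without M1, all short of the threshold, which 4 against 3 mice cannot reach (smallest p 0.0571). Cells with over 40% globin were 23.5%, and with over 60% 12.2%. General capillary cells were nearest for 56.5% of cells over 500 and over 5000 genes, and 101 and 111 of 115 cells kept their nearest label.

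Leaving out M1, an alternative chosen after seeing the data, took the membrane sum, Epb41 included, from 37.0 to 17.5, the proliferation sum from 3.19 to 0.873 and the cytosol sum from 60.4 to 36.3, and the pan-endothelial sum from 74.3 to 83.5. Leaving out each mouse in turn was added after seeing the data for the other comparisons of CS and RA. The difference ranged from −5.54 (without M1) to 11.02 (without M3) for Cd74, changing sign also without D5 (−1.67) and F1 (−4.04), from −3.87 (M1) to 22.1 (M3) for the MHC class II sum, negative also without F1 (−1.01), and from −1158 (F1) to 385 (M3) for median transcripts. It kept its sign for Gpihbp1 (0.157 to 2.82) and the pan-endothelial sum (0.972 to 31.1), and none passed the test. The labels pair no mice by number, so differences were also taken within the 4 lanes, each with 1 mouse of each group. The exact sign permutation p was 0.25 for the cell share, 0.375 for globin and 0.375 to 0.875 for the other 5 values, where 0.125 is the smallest p that 4 lanes allow.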

Other observations

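Transcripts of the 82 ribosomal protein genes stood at 321 ± 188 per 10,000 in the labelled cells, beside 259 in general capillary cells and a median of 616 over the other labels. The 37 mitochondrial genes stood at 110 ± 44.5, beside 105 in general capillary cells. Of the immediate early genes of tissue dissociation, Fos, Jun, Junb, Egr1 and Atf3 summed to 37.7 in the 99 cells with few red cell membrane genes and 8.59 in the 16 with 6 or more. Most of the 8.59 came from 1 cell of F1, with 122.9. At least 1 of the 5 was found in 94 of the 99 cells and 7 of the 16. Of those 16, the 10 from M1 summed to 1.11 and the 6 from other mice to 21.1. To the latter sum 3 of the 6 cells contributed, and the same F1 cell made most of it. The 17 cells with more than 50% globin held 1.16 of these genes and 18.4 of the pan-endothelial genes per 10,000. Globin took up a median of 67.1% of the transcripts of these 17 cells, which by itself lowers every other level on this scale.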
